A study of Rattus norvegicus with 6 samples.

Results

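The endothelial cells of the liver sinusoid and of continuous vessels were followed through 10 genes. Stab1, Stab2, Lyve1 and Clec4g are grouped here as sinusoidal scavenger genes, although Clec4g encodes a C-type lectin. The others are the vascular endothelial growth factor (VEGF) receptor genes Kdr, Flt1 and Flt4, and the continuous-vessel genes Pecam1, Cd34 and Plvap. The genes were chosen by name, as the rows of the expression table whose symbol equals that of a member, and 9 of the 10 were found among 19616 genes. Pecam1 was not analysed here. The table places Stab1 and Plvap on chromosome 16, Clec4g and Flt1 on chromosome 12, and Lyve1, Stab2, Flt4, Cd34 and Kdr on chromosomes 1, 7, 10, 13 and 14.

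Liver tissue of 6 male SD rats was sequenced, 1 library per rat, to compare fibrotic with control liver. The 3 rats of the fibrosis group (FL2, FL5 and FL12) received CCl4, a solvent that injures hepatocytes, mixed 1:1 with olive oil and injected intraperitoneally at 2 mL/kg body weight, 2 times a week for 5 weeks. The 3 rats of the control group (CL5, CL6 and CL7) received olive oil alone, in the same volume. The age of the rats was not given in the sources used here, and no transgene was involved. Expression was given as FPKM, the fragments of a gene per length of its transcript and per mapped fragments of the library. FPKM summed over the table to 309425 in CL5, 340467 in CL6, 315259 in CL7, 309226 in FL2, 272350 in FL5 and 272110 in FL12. The number of reads behind a value is unknown. The commonest value above 0 among the short U6 RNA genes, taken as the worth of 1 read on such a gene, lay between 0.21 FPKM in CL5 and 0.32 FPKM in CL6, with the FL rats between 0.28 and 0.31 FPKM.

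Sinusoidal endothelial cells line the capillaries of the liver, have open pores without a continuous basement membrane, and take up waste molecules from the blood through scavenger receptors. In chronic liver injury these cells can lose their pores and gain a basement membrane and surface proteins of ordinary capillaries, which is called capillarization. VEGF made by neighbouring cells acts on the receptors of the endothelium and is known to maintain the sinusoidal state.

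The endothelium was present in every library. Cdh5, the cadherin of endothelial junctions, stood at 7.90 FPKM in CL5, 7.91 in CL6 and 6.54 in CL7, and at 9.74 FPKM in FL2, 10.3 in FL5 and 8.12 in FL12. Its log2 fold change of 0.33 (SE 0.14) did not pass the test (adjusted p = 0.139). The groups did not overlap, and 35.7% of all genes tested likewise had FL values above all CL values. The log2 fold change of Cdh5 was 0.10 with median scaling and 0.076 with quantile normalization. Tek, Tie1, Eng and Vwf, which also mark endothelium, were above 0 in all 6 rats. These are bulk samples, so fewer endothelial cells and less RNA per cell cannot be told apart, nor can more cells and more RNA per cell.

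Of the 9 genes 1 passed the test, Stab2, which was 1.68-fold higher in the FL livers, and none of the 4 scavenger genes passed as lower. A gene passed with an adjusted p under 0.05 from limma over 14864 genes. Of those, 16.9% passed as higher and 1.94% as lower in the FL group, which were 2518 and 288 genes, against 1301 and 533 with median scaling of the rats. With a fold change of at least 2 besides, the definition of a differentially expressed gene, 9.29% were higher and 0.935% lower, and 0 of the 9 members met it. Of the members, 0 passed as lower in limma, and 0 were lower at an unadjusted p under 0.05, whereas 3 were higher at that limit, Stab2, Flt4 and Cd34, beside 4.04% and 31.5% of all genes tested. The same 3 genes had FL values above all CL values, which held for 35.7% of the genes tested, and 0 members had FL values below all CL values, which held for 4.78%. The members' shares are therefore near those of the whole table.

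The median log2 fold change of the 9 members was 0.30, beside 0.29 over all genes tested. Median scaling moved these medians to 0.08 and 0.08. Quantile normalization moved the median of all genes to -0.04 and that of the members to 0.02. A log2 fold change of about 0.3 was thus that of a gene in the middle of the table, and 7 members had a positive and 2 a negative value without scaling, against 5 and 4 with either scaling.

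**Figure D1:**
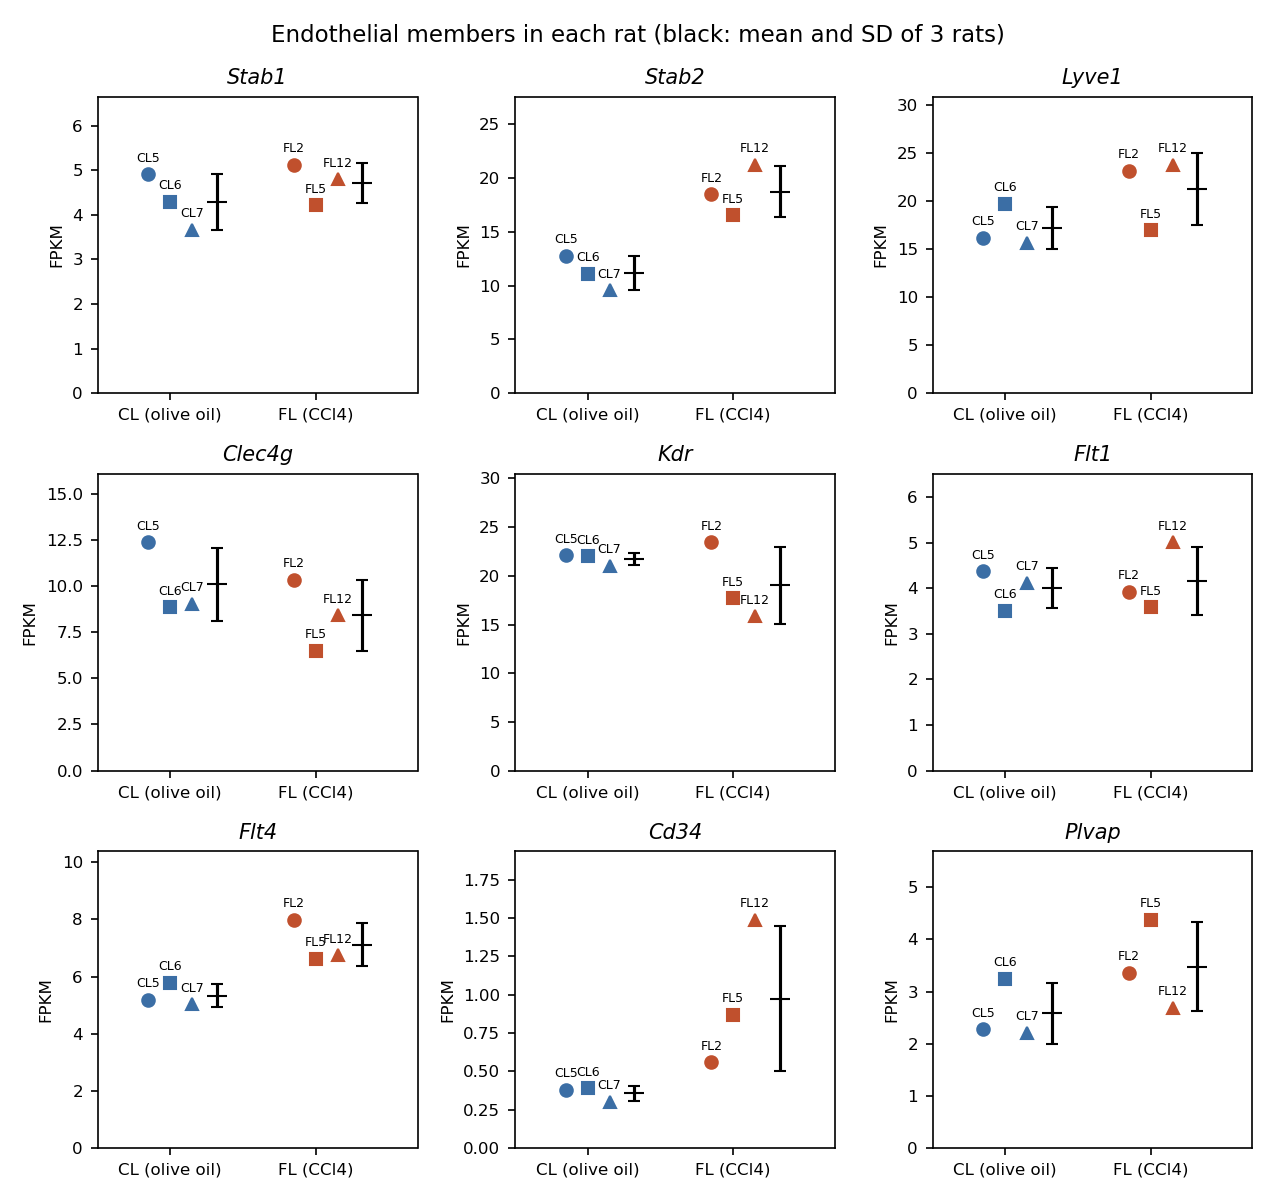
FPKM of the 9 members in each rat, 1 panel per gene, with CL rats on the left and FL rats on the right of each panel, and the mean and SD of 3 rats in black; each vertical axis starts at 0. Stab2, Flt4 and Cd34 show FL rats above every CL rat, and Stab2 alone passed the test.

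Of the pair of stabilins, Stab2 passed the test and Stab1 did not. Stab2, the receptor that clears hyaluronan from the blood, was listed at 12.8 FPKM in CL5, 11.1 in CL6 and 9.58 in CL7, and at 18.5 FPKM in FL2, 16.5 in FL5 and 21.2 in FL12. All 3 FL rats were above all 3 CL rats. Stab2 rose by a log2 fold change of 0.75 (SE 0.15, adjusted p = 0.0143). With median scaling the value was 0.52 (adjusted p = 0.0466), and without CL7, the control rat with the lowest level, it was 0.64 and the test was not passed (adjusted p = 0.0563, in a range of 0.0124 to 0.0563 over 14 alternatives).

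Stab1, its relative and a receptor that sinusoidal endothelium shares with some macrophages, stood at 4.91 FPKM in CL5, 4.29 in CL6 and 3.67 in CL7, and at 5.12 FPKM in FL2, 4.22 in FL5 and 4.80 in FL12. The groups overlapped, with FL5 below CL5 and CL6. The log2 fold change of Stab1 was 0.14 (SE 0.15, adjusted p = 0.550), and its sign turned with median scaling (-0.08) and with quantile normalization (-0.18).

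The ratio of Stab2 to Stab1 within a rat is unchanged when all FPKM of the rat are multiplied by 1 factor, as in median scaling, but not by quantile normalization. It was 2.60 in CL5, 2.58 in CL6 and 2.61 in CL7, and 3.61 in FL2, 3.92 in FL5 and 4.42 in FL12. The 3 control rats were nearly equal (mean 2.60, SD 0.0143), while the FL rats were all higher and more spread (mean 3.98, SD 0.408). This ratio and those that follow were chosen after the values were seen and have no test. A ratio without overlap was found for 37.8% of all pairs of genes of at least 1 FPKM.

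Lyve1, a hyaluronan receptor of sinusoidal and lymphatic endothelium, was listed at 16.2 FPKM in CL5, 19.7 in CL6 and 15.7 in CL7, and at 23.2 FPKM in FL2, 17.0 in FL5 and 23.8 in FL12. FL2 and FL12 were above the controls and FL5 lay among them. The log2 fold change of Lyve1 was 0.30 (SE 0.16, adjusted p = 0.225), about 0.01 above the median of all genes. For Lyve1 it was 0.075 with median scaling and 0.14 with quantile normalization, and between 0.21 (without FL12) and 0.45 (without FL5) without each rat.

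Clec4g, the C-type lectin LSECtin, had 12.4 FPKM in CL5, 8.86 in CL6 and 9.05 in CL7, and 10.4 FPKM in FL2, 6.51 in FL5 and 8.43 in FL12. It was the scavenger member with a negative log2 fold change (-0.27, SE 0.20, adjusted p = 0.376), the groups overlapped, and CL5 was the highest rat. The log2 fold change of Clec4g was -0.49 with median scaling, -0.51 with quantile normalization, and between -0.42 (without FL2) and -0.094 (without FL5) without each rat, and none of these passed. Set against Stab2 in the same rat, Clec4g moved apart from it. Stab2 was 1.03 times Clec4g in CL5, 1.25 in CL6 and 1.06 in CL7, and 1.78 times Clec4g in FL2, 2.54 in FL5 and 2.51 in FL12, with no overlap. Lyve1 was 1.31, 2.23 and 1.73 times Clec4g in the same CL rats and 2.24, 2.61 and 2.82 times Clec4g in the FL rats, where FL2 and CL6 were separated by little. Stab1 over Lyve1 overlapped, with 0.303 in CL5, 0.217 in CL6 and 0.234 in CL7, and 0.221 in FL2, 0.248 in FL5 and 0.202 in FL12. Of the 6 ratios between 2 scavenger genes 5 were without overlap, all but that of Stab1 to Lyve1, beside 37.8% of all pairs among 10506 genes of at least 1 FPKM and above 0 in each rat.

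Stab1 and Lyve1 can also be expressed by macrophages. All 8 macrophage markers were tested and 3 rose (Marco, Cd68 and Csf1r) and 0 fell, beside 16.9% and 1.94% of all genes. The count was 4 without CL5 and 6 without FL12. With an unadjusted p under 0.05, 7 were higher and 0 lower, beside 31.5% and 4.04% of all genes. The list had a median log2 fold change of 0.76, beside 0.29 over all genes. Their FPKM summed to 144 in CL5, 131 in CL6 and 140 in CL7, and to 309 in FL2, 296 in FL5 and 166 in FL12. The most abundant of the list over the 6 rats was Clec4f, a lectin of resident Kupffer cells, at 47.2 ± 3.52 FPKM (SD, n = 3) in CL and 50.1 ± 21.1 FPKM in FL rats, where Cd5l (55.5 ± 23.0) and Marco (51.5 ± 24.7) stood above it, and no marker of the list was at 0 in every rat. The part of macrophages in the levels of the scavenger genes was not tested.

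Among the VEGF receptors, Kdr was the most abundant and Flt4 was the one without overlap. Kdr encodes the main signalling receptor for VEGF-A. It was listed at 22.1 FPKM in CL5, 22.0 in CL6 and 21.0 in CL7, and at 23.4 FPKM in FL2, 17.7 in FL5 and 15.9 in FL12. The control rats were close to each other, FL2 was above them, and FL5 and FL12 were below. The log2 fold change of Kdr was -0.21 (SE 0.15, adjusted p = 0.354). It was -0.43 with median scaling, -0.36 with quantile normalization, -0.37 without FL2 (adjusted p = 0.0516) and -0.091 without FL12.

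Flt1, a receptor that binds VEGF-A tightly and signals weakly, stood at 4.37 FPKM in CL5, 3.51 in CL6 and 4.12 in CL7, and at 3.92 FPKM in FL2, 3.58 in FL5 and 5.01 in FL12. The groups overlapped, and the log2 fold change of 0.05 (SE 0.17, adjusted p = 0.851) turned negative with median scaling (-0.17) and quantile normalization (-0.29).

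Flt4, the receptor for VEGF-C and VEGF-D that sinusoidal and lymphatic endothelium carry, had 5.18 FPKM in CL5, 5.78 in CL6 and 5.02 in CL7, and 7.99 FPKM in FL2, 6.62 in FL5 and 6.75 in FL12. All FL rats were above the CL rats, but the log2 fold change of 0.41 (SE 0.13) missed the limit (adjusted p = 0.0641), and with median scaling it was 0.19. Flt4 relative to Kdr was 0.234 in CL5, 0.263 in CL6 and 0.239 in CL7, and 0.341 in FL2, 0.374 in FL5 and 0.425 in FL12. That ratio was higher in every FL rat. Of the 3 ratios among VEGF receptor genes, 1 was without overlap (33.3%), beside 37.8% of all pairs of genes of at least 1 FPKM. Kdr over Flt1 overlapped, with 5.06 in CL5, 6.27 in CL6 and 5.10 in CL7, and 5.98 in FL2, 4.95 in FL5 and 3.17 in FL12, and so did Flt1 over Flt4.

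Of the continuous-vessel genes, Cd34 was the least abundant member and had the largest log2 fold change of the 9, a rank that Stab2 took with a pseudocount of 1 or quantile normalization. Cd34 encodes a sialomucin of the surface of continuous capillaries and of progenitor cells. It was listed at 0.38 FPKM in CL5, 0.39 in CL6 and 0.30 in CL7, and at 0.56 FPKM in FL2, 0.87 in FL5 and 1.49 in FL12. The FL rats were all above the CL rats and spread widely, with FL2 nearest to the controls. The log2 fold change was 1.15 (SE 0.35) and did not pass (adjusted p = 0.0562). Without FL2 it was 1.45 and passed (adjusted p = 0.0193, in a range of 0.0193 to 0.279 over 13 alternatives). At such low FPKM the pseudocount matters, and with a pseudocount of 1 the log2 fold change of Cd34 was 0.51 and that of Stab2 0.70.

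Plvap, which forms the diaphragms of endothelial pores and caveolae, stood at 2.28 FPKM in CL5, 3.25 in CL6 and 2.21 in CL7, and at 3.36 FPKM in FL2, 4.38 in FL5 and 2.69 in FL12. FL12 lay below CL6, so the groups overlapped. The log2 fold change of Plvap was 0.41 (SE 0.23, adjusted p = 0.229). For Plvap it was 0.19 with median scaling, 0.024 with quantile normalization, and between 0.23 (without FL5) and 0.58 (without CL6) without each rat. Cd34 and Plvap did not follow each other among the FL rats, since FL12 had the highest Cd34 and the lowest Plvap of the group.

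FL2 also stood apart in the markers of stellate cells and myofibroblasts, the cells that lay down scar. Of these 7 markers, 4 rose (Col1a1, Col3a1, Des and Pdgfrb) and 0 fell, beside 16.9% and 1.94% of all genes, and 6 rose without FL2. The median log2 fold change of the list was 1.69, beside 0.29 over all genes. Their FPKM summed to 79.3 in CL5, 83.6 in CL6 and 77.3 in CL7, and to 193 in FL2, 529 in FL5 and 479 in FL12. Col3a1 was the most abundant of them, and none was at 0 in any rat. The part of these cells in the level of Cd34 was not tested.

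The difference between the scavenger and the continuous-vessel genes was described as a contrast, the mean log2(FPKM + 0.1) of Stab1, Stab2, Lyve1 and Clec4g minus that of Cd34 and Plvap. It was 3.32 in CL5, 2.92 in CL6 and 3.15 in CL7, and 3.04 in FL2, 2.19 in FL5 and 2.52 in FL12. FL2 lay among the control rats, whereas FL5 and FL12 lay below them. The mean was 3.13 ± 0.20 (SD, n = 3) in the CL and 2.58 ± 0.43 in the FL group, a difference of -0.55 on the log2 scale. The scavenger mean was higher in the FL group by 0.23 and the continuous-vessel mean by 0.78, so the smaller contrast did not come with a lower scavenger mean, although with median scaling the median of the 4 scavenger log2 fold changes was 0.00 and that of the continuous-vessel genes 0.57. The continuous-vessel mean held only Cd34 and Plvap, with log2 fold changes of 1.15 and 0.41, and Cd34 was at most 0.39 FPKM in the CL rats. The difference of the contrast was -0.20 with a pseudocount of 1 and -0.29 with quantile normalization. It lay between -0.78 (without FL2) and -0.35 (without FL5) without each rat.

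Relative to Cdh5 in the same rat, 3 of the 9 members did not overlap between the groups, 1 higher and 2 lower in the FL rats, beside 14.5% higher and 12.3% lower of all other genes tested on that scale. Clec4g over Cdh5 was 1.57 in CL5, 1.12 in CL6 and 1.38 in CL7, and 1.06 in FL2, 0.634 in FL5 and 1.04 in FL12. Kdr over Cdh5 was 2.80, 2.78 and 3.21 in the CL rats and 2.41, 1.73 and 1.95 in the FL rats in the same order. Both ratios were lower in every FL rat. Cd34 over Cdh5 was 0.0481, 0.0493 and 0.0459 in the CL rats and 0.0575, 0.0847 and 0.183 in the FL rats, higher in every one. Stab2 over Cdh5 overlapped, with 1.62 in CL5 and 1.61 in FL5.

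In the order of levels, which FPKM allows because it is per length, Kdr led in the CL group with 21.7 ± 0.606 FPKM (SD, n = 3) and Lyve1 followed with 17.2 ± 2.22. Stab2 (11.1 ± 1.60) and Clec4g (10.1 ± 1.98) did not differ beyond their spread. Flt4 (5.33 ± 0.401) came before Stab1 (4.29 ± 0.620) and Flt1 (4.0 ± 0.442), which lay within each other's spread, and Plvap (2.58 ± 0.581) and Cd34 (0.357 ± 0.0493) were last. In the FL group Lyve1 (21.3 ± 3.75), Kdr (19.0 ± 3.95) and Stab2 (18.7 ± 2.34) lay within each other's spread, and Clec4g (8.43 ± 1.92) was well below Stab2. The order from Clec4g downward was that of the CL group.

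Further genes of sinusoidal endothelium included a receptor, a nuclease and a clotting factor. Of 8 tested, 0 passed limma in either direction, beside 16.9% and 1.94% of all genes. At an unadjusted p under 0.05, 2 were higher and 1 lower, beside 31.5% and 4.04% of all genes, and without FL2 1 passed limma in each direction. The median log2 fold change of the 8 was 0.03, beside 0.29 over all genes, with 4 positive and 4 negative, and with median scaling it was -0.20 beside 0.08, with 2 positive and 6 negative. Fcgr2b, an Fc receptor and the most abundant of the list, had 25.8 ± 2.68 FPKM in the CL and 23.7 ± 4.89 FPKM in the FL group. Ehd3, a membrane trafficking protein, was listed at 21.7 FPKM in CL5, 19.9 in CL6 and 22.5 in CL7, and at 18.2 FPKM in FL2, 15.1 in FL5 and 16.4 in FL12. Every FL rat was below every CL rat, and the log2 fold change of -0.37 (SE 0.12, adjusted p = 0.0625) passed with median scaling (-0.59, adjusted p = 0.0294) and quantile normalization (-0.52, adjusted p = 0.0487, in a range of 0.0294 to 0.190 over 14 alternatives). F8, coagulation factor VIII, had 2.55 ± 0.0950 FPKM in the CL and 3.55 ± 0.341 FPKM in the FL group (log2 fold change 0.46, SE 0.14, adjusted p = 0.0572, in a range of 0.0330 to 0.678 over 14 alternatives). Oit3 had 5.77 ± 0.278 and 7.57 ± 0.759 FPKM (0.38, SE 0.13, adjusted p = 0.0700). Both were without overlap in the other direction from Ehd3. Of the 8 genes, 2 had FL values above all CL values and 1 below, beside 35.7% and 4.78% of the genes tested. With median scaling and with quantile normalization F8 was 0.24 and 0.087, and Oit3 0.16 and 0.098.

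Among 11 regulators of the sinusoidal state and angiocrine factors, signals that endothelium sends to other liver cells, 2 rose and 0 fell, beside 16.9% and 1.94% of all genes, and the median log2 fold change was 0.32, beside 0.29. Wnt9b, a Wnt ligand of the endothelium of the central vein, went from 0.117 ± 0.0404 FPKM in the CL to 0.697 ± 0.341 FPKM in the FL group (log2 fold change 1.80, SE 0.40, adjusted p = 0.0215). Klf4, a transcription factor induced by flow, went from 0.490 ± 0.0436 to 1.17 ± 0.425 FPKM (1.06, SE 0.29, adjusted p = 0.0395). The count was 1 with median scaling, 0 with quantile normalization, and 0 without any of CL5, CL6, CL7, FL5 and FL12. Gata4, the transcription factor that specifies sinusoidal endothelium, had 6.91 ± 2.27 FPKM in the CL and 6.07 ± 0.513 FPKM in the FL group. Maf, the most abundant gene of the list, had 8.33 ± 0.789 and 10.6 ± 1.41 FPKM.

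Among the ligands of the VEGF receptors, Vegfd rose, and Vegfa and Vegfc did not pass the test. Vegfc, a ligand of Flt4, was without overlap (log2 fold change 0.50, SE 0.16, adjusted p = 0.0592). For Vegfc it was 0.29 with median scaling and 0.090 with quantile normalization. Of 11 genes of VEGF and angiopoietin signalling, 7 had FL values above all CL values and 0 below, beside 35.7% and 4.78% of the genes tested. Vegfa, the ligand of Kdr and Flt1 and the most abundant gene of the pathway list, stood at 37.4 FPKM in CL5, 48.1 in CL6 and 48.9 in CL7, and at 45.1 FPKM in FL2, 36.0 in FL5 and 37.3 in FL12. The groups overlapped (log2 fold change -0.18, SE 0.15, adjusted p = 0.421). For Vegfa it was -0.40 with median scaling and -0.29 with quantile normalization. Vegfd, a ligand of Flt4, listed under its older name Figf, had 0.51 FPKM in CL5, 0.56 in CL6 and 0.62 in CL7, and 1.87 FPKM in FL2, 6.86 in FL5 and 5.16 in FL12. All FL rats were far above the controls and FL2 was again the nearest to them. Vegfd rose by a log2 fold change of 2.65 (SE 0.42, adjusted p = 0.00730). The summed stellate cell and myofibroblast markers, at 193 FPKM in FL2, 529 in FL5 and 479 in FL12, followed the same order among the FL rats, and the part of those cells in Vegfd was not tested.

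Of 10 tested genes of VEGF and angiopoietin signalling, 4 rose and 0 fell in limma, beside 16.9% and 1.94% of all genes, and 6 were higher and 0 lower at an unadjusted p under 0.05, beside 31.5% and 4.04%. Besides Vegfd these were the coreceptors Nrp2 (log2 fold change 0.96, SE 0.14, adjusted p = 0.00531) and Nrp1 (0.94, SE 0.18, adjusted p = 0.0123) and the orphan receptor Tie1 (0.62, SE 0.17, adjusted p = 0.0382). The count was 3 with median scaling, 2 with quantile normalization, 3 without any of CL5, CL6, CL7, FL5 and FL12, and 5 without FL2. Tie1 lost its call in 9 of 14 alternatives (adjusted p from 0.0213 to 0.255). The median of the list was 0.73, beside 0.29 over all genes. Tek, the angiopoietin receptor that partners Tie1, had 4.89 ± 0.576 FPKM in the CL and 4.86 ± 0.529 FPKM in the FL group.

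Genes of other vessel endothelium held 5 of 20 tested that rose and 0 that fell, beside 16.9% and 1.94% of all genes, with 10 higher and 0 lower at an unadjusted p under 0.05, beside 31.5% and 4.04%. The median of the list was 0.45, beside 0.29 over all genes. Icam1, an adhesion molecule for leukocytes, had 5.13 FPKM in CL5, 5.60 in CL6 and 6.01 in CL7, and 13.5 FPKM in FL2, 11.1 in FL5 and 13.5 in FL12 (log2 fold change 1.17, SE 0.13, adjusted p = 0.00307). Vwf, the clotting factor that continuous endothelium stores, had 2.36, 2.59 and 2.94 FPKM in the CL rats and 3.72, 7.43 and 6.06 FPKM in the FL rats in the same order (1.05, SE 0.25, adjusted p = 0.0256). Cldn5, a tight junction claudin, was at most 0.10 FPKM in each CL rat and between 0.30 and 0.70 FPKM in the FL rats. These 3 genes were each without overlap, as were Egfl7 (0.75, SE 0.20, adjusted p = 0.0375) and Eng (0.42, SE 0.11, adjusted p = 0.0334), the list's most abundant gene. Of the 22 genes of the list, 13 had FL values above all CL values and 1 below, beside 35.7% and 4.78% of the genes tested. The leukocyte marker Ptprc and the macrophage markers Cd68 and Csf1r rose as well, and the part of those cells in Icam1 was not tested.

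The count of this list depended on the scaling and on single rats. With median scaling it was 2 higher and 1 lower, the latter Ptprb, an endothelial phosphatase (-0.46, adjusted p = 0.0319, in a range of 0.0319 to 0.299 over 14 alternatives). With quantile normalization it was 1 and 1. It was 2 without CL5, 1 without any of CL6, CL7, FL5 and FL12, and 6 without FL2. Icam1 passed in all of these. The higher calls over all genes tested moved too, from 2518 to 1301 with median scaling and 778 with quantile normalization. They were 938 without CL7 and 3198 without FL2.

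Components of the basement membrane, the sheet that sinusoids of healthy liver lack as a continuous layer, held 8 of 10 tested that rose and 0 that fell, beside 16.9% and 1.94% of all genes, and all 10 log2 fold changes were positive. The list's median was 1.28, beside 0.29 over all genes. Col4a1, the most abundant of the list, had 9.37 FPKM in CL5, 9.24 in CL6 and 7.09 in CL7, and 17.3 FPKM in FL2, 35.6 in FL5 and 40.2 in FL12. FL2 lay between the controls and the other FL rats, as it did for Cd34. The largest increases on the log2(FPKM + 0.1) scale were those of Lama5 (3.99-fold, adjusted p = 0.0140), Col4a1 (3.40-fold, adjusted p = 0.00911) and Nid1 (3.11-fold, adjusted p = 0.00808), although with a pseudocount of 1 the log2 fold change of Lama5 was 0.92, below those of Col4a1 and Nid1. The count was 6 with either scaling, 10 without FL2, 2 without CL7 or FL5, and 5 without CL5 or FL12. Stellate cells, of whose 7 markers 4 rose, also make these proteins, and their part was not tested.

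**Figure D2:**
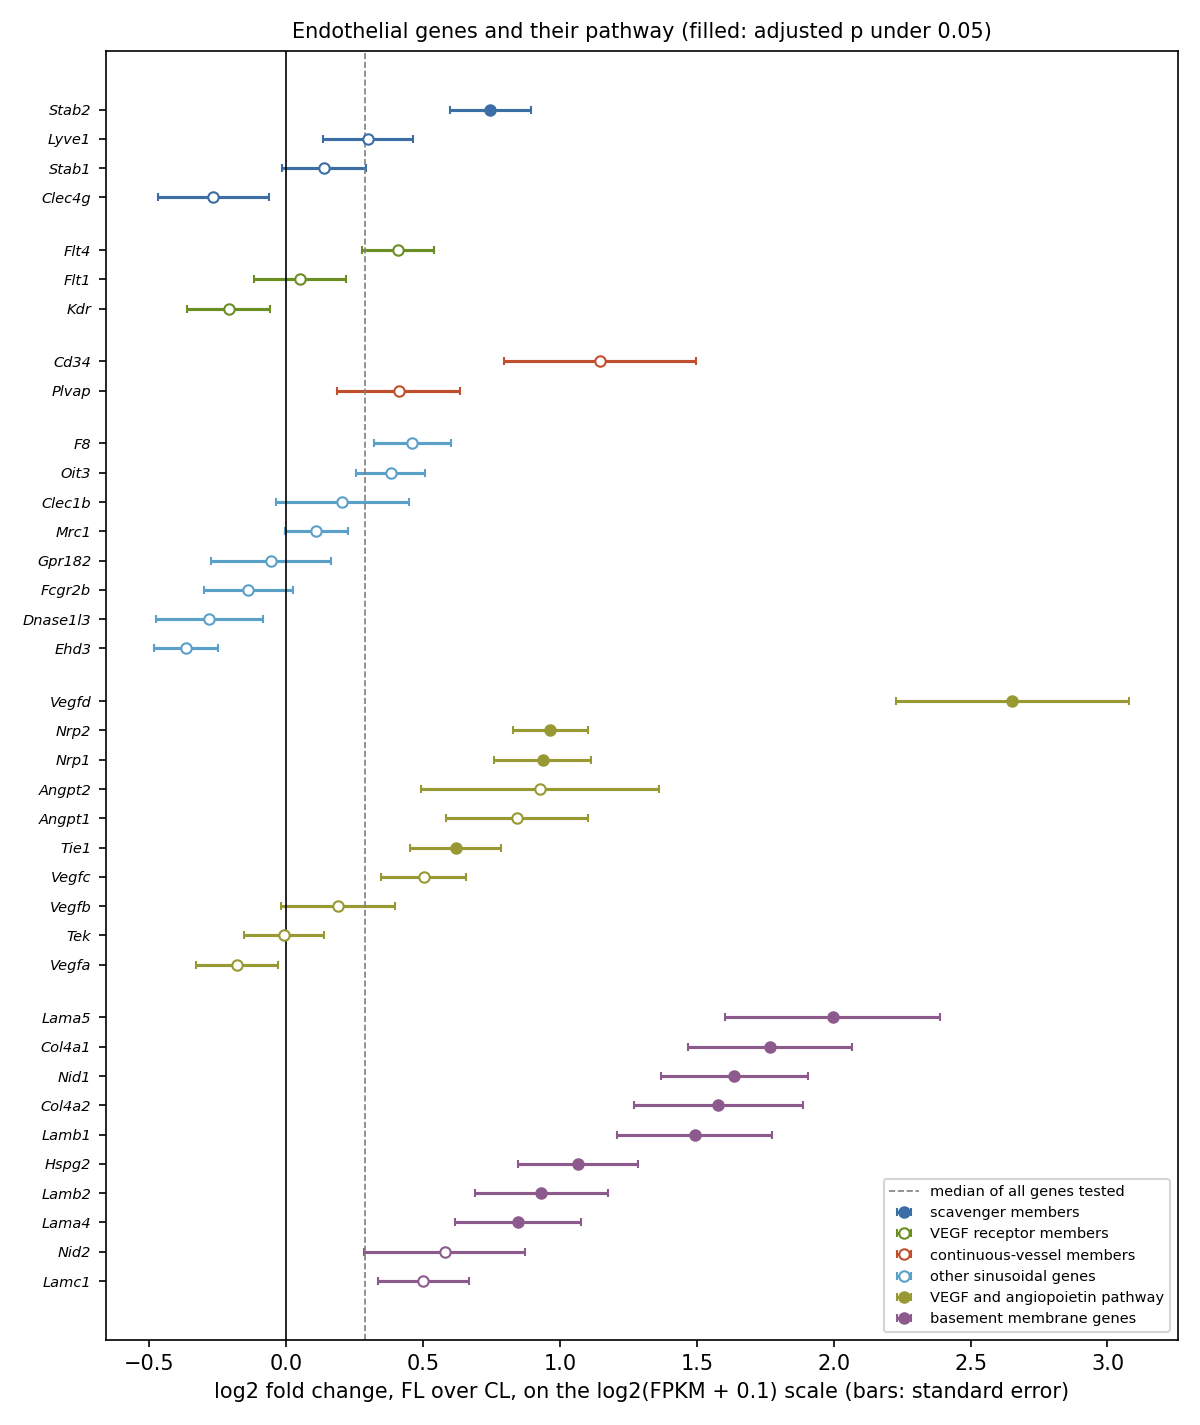
Log2 fold changes of the FL over the CL group on the log2(FPKM + 0.1) scale, with standard errors as bars, for the members and for lists of sinusoidal, VEGF pathway and basement membrane genes; filled points have an adjusted p under 0.05 and the dashed line is the median of all genes, 0.29. Stab2 is the filled member, the basement membrane genes lie to the right of the line, and the small values of Stab1 and Flt1 change sign with median scaling.

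Lyve1 and Flt4 are carried by lymphatic endothelium too. Of its 5 markers tested, 2 rose, Ccl21 (0.980 ± 0.262 FPKM in the CL and 17.2 ± 11.8 FPKM in the FL group, log2 fold change 3.73, SE 0.53, adjusted p = 0.00531) and Reln (0.54, SE 0.14, adjusted p = 0.0326), and with either scaling or without any of CL5, CL6, CL7, FL5 and FL12 the count was 1, and without FL2 it was 3. None fell, and 16.9% of all genes passed as higher and 1.94% as lower. The median of the list was 0.54, beside 0.29 over all genes. The markers summed to 35.3 FPKM in CL5, 31.1 in CL6 and 32.9 in CL7, and to 59.2 FPKM in FL2, 47.5 in FL5 and 74.8 in FL12, of which Prox1, which hepatocytes express as well, was the largest part. With an unadjusted p under 0.05, 4 of the 5 were higher and 0 lower, beside 31.5% and 4.04% of all genes. Mmrn1 had 0.13 ± 0.05 FPKM in the CL and 1.03 ± 1.02 FPKM in the FL group. It was without overlap but did not pass (log2 fold change 1.95, SE 0.58, adjusted p = 0.0514). Of the 6 markers of the list, 5 had FL values above all CL values and 0 below, beside 35.7% and 4.78% of the genes tested. Pdpn, a defining marker, was between 0.04 and 0.41 FPKM in all 6 rats, and Foxc2 was at 0 in the 3 CL rats and at most 0.10 FPKM in the FL rats. The part of lymphatic vessels in Lyve1 and Flt4 was not tested.

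Hepatocytes are the bulk of the tissue, and their genes bear on the share of RNA left for endothelium. Of 6 hepatocyte markers, 0 passed limma, beside 16.9% of all genes as higher and 1.94% as lower, and 1 was higher at an unadjusted p under 0.05, beside 31.5%. Apoa1 passed without FL2, with no trend, with a robust prior and with a mean of at least 1 FPKM. Under the trended prior the standard errors of Alb and Tf were 0.98 and 0.48, although neither overlapped between the groups. With no trend the adjusted p of Alb in limma was 0.079, against 0.804. The count of 0 therefore does not show that these very abundant genes were unchanged. The list's median was 0.014, beside 0.29 over all genes. With median scaling these medians were -0.21 and 0.08. With quantile normalization they were 0.43 and -0.04, so the list then lay above all genes instead of below. The sum of the hepatocyte markers was 50182 FPKM in CL5, 47758 in CL6 and 48237 in CL7, and 40732 FPKM in FL2, 42431 in FL5 and 41384 in FL12, mostly Alb. The sum was lower in each FL rat, as were Alb and Ttr (5779 ± 267 FPKM in the CL and 3760 ± 699 FPKM in the FL group), whereas Tf (5865 ± 95.7 and 7278 ± 418 FPKM) and Apoa1 (1149 ± 30.4 and 1920 ± 334 FPKM) were higher in each FL rat. Of the 6 log2 fold changes 4 were positive, against 2 with median scaling and 5 with quantile normalization, with which that of Alb turned positive. The part of this in the higher FPKM of other genes was not tested.

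The genes whose levels over the 6 rats were most like the mean of the scavenger members, by Pearson's r among 10527 genes of at least 1 FPKM, were Acaca (r = 0.990), Acsm1 (0.980), Mid1ip1 (0.979), AABR07051642.1 (0.979) and Tmem50b (0.977). Acaca encodes the enzyme that commits acetyl-CoA to fatty acid synthesis. It had 22.8 FPKM in CL5, 19.0 in CL6 and 13.4 in CL7, and 33.7 FPKM in FL2, 18.8 in FL5 and 28.7 in FL12, and shared with the scavenger mean a low FL5 and a low CL7. Most like the mean of Cd34 and Plvap were Nme6 (r = 0.999), Tusc3 (0.998), Itsn1 (0.997), Lpp (0.996) and Hltf (0.995). Each r describes 6 libraries that also differ by group.

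To show what lies before the genes that the results turn on, the 250 bases upstream of the transcription start are given for Stab2, the member that rose, for Stab1, its relative that did not pass, and for Cd34, a continuous-vessel gene without overlap between the groups. The sequences are those of RefSeq on the GRCr8 build of the rat, in which all 9 members found were matched by symbol. The windows are chr7:23320563-23320812 on the minus strand for Stab2, chr16:6367360-6367609 on the minus strand for Stab1 and chr13:109008536-109008785 on the plus strand for Cd34, each written 5′ to 3′ along the gene. Capitals mark GGAA (the core of ETS factor motifs), GATAA (GATA factors) and CACCC (KLF factors) on either strand, that is also TTCC, TTATC and GGGTG, and neighbouring matches can share a base.
Stab2: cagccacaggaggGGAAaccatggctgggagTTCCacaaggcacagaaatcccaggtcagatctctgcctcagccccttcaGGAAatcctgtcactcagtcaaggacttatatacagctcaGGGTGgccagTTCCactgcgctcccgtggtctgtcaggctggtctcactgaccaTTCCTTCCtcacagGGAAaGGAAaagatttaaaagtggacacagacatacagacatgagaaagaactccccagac
Stab1: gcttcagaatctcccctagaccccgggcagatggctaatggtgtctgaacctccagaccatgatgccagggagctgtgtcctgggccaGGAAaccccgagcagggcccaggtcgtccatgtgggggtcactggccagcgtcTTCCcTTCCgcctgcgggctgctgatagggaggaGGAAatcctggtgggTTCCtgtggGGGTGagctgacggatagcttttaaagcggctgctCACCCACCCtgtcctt
Cd34: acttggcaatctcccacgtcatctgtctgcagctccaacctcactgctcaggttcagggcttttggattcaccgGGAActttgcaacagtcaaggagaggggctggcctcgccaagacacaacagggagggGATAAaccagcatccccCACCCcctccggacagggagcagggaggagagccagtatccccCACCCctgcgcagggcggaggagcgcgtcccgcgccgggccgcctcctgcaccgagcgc
Stab2 had 8 matches of GGAA, 0 of GATAA and 1 of CACCC, Stab1 had 5, 0 and 3, and Cd34 had 1, 1 and 2. Of 33469 windows of the same length, 93.2% held GGAA, with a median of 3 matches, 23.5% held GATAA and 49.2% held CACCC. Among the 9 members, GATAA occurred before Cd34 and Plvap and not in the windows of the others, beside 23.5% of all windows. Pecam1 was not among them. A match describes letters in a window and nothing of a factor.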

How the data were processed

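RNA from the livers of 3 CL and 3 FL rats was analysed, with groups and rat numbers taken from the labels. Per the study's methods, reads were trimmed with FASTX-Toolkit, aligned with TopHat2 and counted per gene where they mapped uniquely. The values are the FPKM that the authors deposited, with 2 decimals. No scaling between rats is stated. The genome is named as GRCh38 although the gene identifiers are those of Ensembl for the rat, and the annotation release is not given in the sources used here. A further 2 columns of values were not used, because no sample carries their names. Libraries shared identical values above 0 in at most 2.54% of genes for any pair of rats.

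Differences were tested with limma 3.58.1 (R 4.3.3, trended prior variance) on log2(FPKM + 0.1) wherever the mean FPKM reached 0.1, as it did for all 9 members found. This scale understates changes of low genes. All adjusted p-values are limma's with Benjamini-Hochberg adjustment over all genes tested, and standard errors are moderated. The procedure was tested on simulated data. Tables and plots were made with Python 3.11.15, numpy 2.4.6, pandas 2.3.3 and matplotlib 3.10.9.

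The members and lists were chosen with earlier results of these data known, so lists are described by counts and medians beside those of all genes. Genes named are the members and, of each list, those that passed (where more than 5 passed, the 3 with the largest change), the most abundant gene and others of the list with their values, besides the 5 genes most like the scavenger and the 5 most like the continuous-vessel members. Of 119 genes in 16 lists, 118 had a row, Hspg2 through its RefSeq synonym AABR07073181.1. The results were recomputed after median scaling over 9201 genes or quantile normalization, with a pseudocount of 1 or 0.01, with a minimum mean of 1 FPKM or none, with an untrended or a robust prior variance, and without each rat.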

Additional observations from a re-analysis of the deposited data

How the results depend on the processing

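The alternatives were counted over 72 genes, those tested and named with a value, except Vegfc and Mmrn1, and those of the lists that passed. Of 1001 values under the alternatives, 838 kept direction and side of the threshold, 126 lost the call, 14 gained one and 23 turned. Stab2 kept its call except without CL7. Calls were lost in 9 alternatives for Entpd2, Lama4, Lamb2 and Tie1, in 8 for Egfl7, Eng, Itsn1, Klf4, Reln and Vwf, in 7 for Cldn5 and Lpp, and in 6 for Wnt9b. With median scaling Flt1 was -0.17 and Stab1 -0.082, and with quantile normalization they were -0.29 and -0.18. Without each rat in turn Flt1 lay between -0.086 and 0.15, turning without CL6 or FL12. Genes described by their levels, whose log2 fold changes lay near 0 or varied between rats, turned too. These were, without each rat, Tek (-0.077 to 0.086), Gata4 (-0.42 to 0.073), Clec4f (-0.28 to 0.39), Pdpn (-0.62 to 0.31) and Dpt (-0.47 to 0.39). Dpt was also -0.0011 with a pseudocount of 1, -0.22 with median scaling and -0.074 with quantile normalization, with which Alb was 0.49, Itga2b -0.039 and Tmem50b -0.11. Members that passed as higher numbered 0 (without CL7) to 2 (without FL2). The contrast of scavenger and continuous-vessel genes was -0.20 with a pseudocount of 1, and -0.29 with quantile normalization, against -0.55, and between -0.78 and -0.35 without each rat. Of all genes tested, 2518 passed as higher, against 1301 with median scaling, 778 with quantile normalization and 938 (without CL7) to 3198 (without FL2) without each rat, and 288 passed as lower, against 533, 536 and 121 (without CL6) to 338 (without FL2). The cause of these changes was not tested. The number of reads behind each value is unknown, so low values such as those of Cd34, Wnt9b and Cldn5 have no counting error attached. No paired analysis was made, because the groups hold different rats, which the study's methods say were divided at random.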

Other observations

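Markers of 4 other cell types were counted in the same way. Of 5 portal fibroblast markers 2 rose, Eln (log2 fold change 2.60, SE 0.36, adjusted p = 0.00493) and Entpd2 (1.13, SE 0.32, adjusted p = 0.0439), a count of 1 with either scaling or without any of CL5, CL6, CL7, FL5 and FL12, and of 3 without FL2. None fell, and of all genes 16.9% passed as higher and 1.94% as lower, shares that stand beside each of the 4 lists. The median log2 fold change of the list was 1.13, beside 0.29 over all genes. With a pseudocount of 1 these medians were 0.32 and 0.19, and with quantile normalization 0.55 and -0.04. The sum of the portal fibroblast markers was 86.7 FPKM in CL5, 29.0 in CL6 and 58.3 in CL7, and 58.8 FPKM in FL2, 80.2 in FL5 and 68.6 in FL12, mostly Dpt. Of 5 leukocyte markers 1 rose, Ptprc, from 3.19 ± 0.0651 FPKM (SD, n = 3) in the CL to 9.01 ± 1.07 FPKM in the FL group, and it was also the most abundant of them; without FL12 the count was 2, and the list's median was 0.96. The leukocyte sum was 4.47 FPKM in CL5, 4.17 in CL6 and 5.35 in CL7, and 11.3 FPKM in FL2, 13.6 in FL5 and 10.3 in FL12.

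Platelets carry Vwf besides endothelium. Of 2 platelet markers tested 1 rose, Pf4 (0.957 ± 0.217 FPKM in the CL and 3.52 ± 1.27 FPKM in the FL group), while Gp9, Ppbp and Treml1 were at most 0.14 FPKM in every rat, and the median of the 2 tested was 1.05. The platelet list summed to 4.13 FPKM in CL5, 2.65 in CL6 and 2.85 in CL7, and to 5.11 FPKM in FL2, 6.80 in FL5 and 7.66 in FL12, led by Itga2b in the CL group (2.19 ± 0.631 FPKM) and by Pf4 in the FL group, and its part in Vwf was not tested. Of 5 cholangiocyte markers 0 passed limma (1 without FL2) and 1 was higher at an unadjusted p under 0.05, beside 31.5% of all genes, with sums of 5.38 FPKM in CL5, 7.75 in CL6 and 5.58 in CL7, and 5.38 FPKM in FL2, 8.06 in FL5 and 11.3 in FL12, mostly Epcam, and a median log2 fold change of 0.33.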
